A study of Mus musculus with 2 samples.

Results

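The genes described here encode integrins, the receptors by which cells hold on to the extracellular matrix, and laminins, the cross-shaped matrix proteins that many of those receptors bind. Members were taken by symbol from the protein-coding genes of GENCODE M21. They are every gene named Itga or Itgb followed by a number or a letter code, together with the genes of the laminin alpha, beta and gamma chains. This gave 38 genes, 27 integrins and 11 laminins, among 21853 protein-coding genes with a coding start on chromosomes 1 to 19, X and Y. Itgb1bp1, Itgb1bp2, Itgb3bp and Itgbl1, whose symbols begin alike, are not integrin subunits and were left out. The rule uses symbols alone.

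A laminin is a trimer of an alpha, a beta and a gamma chain. Trimers join into a sheet that forms the base of the basement membrane around each muscle fibre, where nidogens, perlecan and collagen IV are attached to it. An integrin is a pair of an alpha and a beta subunit in the cell membrane, and the pair decides which ligand is bound. In skeletal muscle the main laminin of the fibre surface contains the alpha chain of Lama2 with the chains of Lamb1 and Lamc1, the junctional forms carry the chain of Lamb2, and the main laminin-binding integrin joins the products of Itga7 and Itgb1. Loss of Lama2 or of Itga7 causes muscular dystrophy or myopathy in mice and in people.

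DNase-seq maps open chromatin from the places where the enzyme DNase I cuts DNA in nuclei. The tissue was gastrocnemius, a calf muscle, of male B6CASTF1/J mice, a hybrid of a C57BL/6 and a CAST parent, at 10 days of age, with no treatment named. There were 2 libraries in 1 group, which the labels number as biological replicates 1 and 2. The labels name 3 males for each sample but the same donor record for both, and do not say whether tissue was pooled, so the spread between the libraries may be partly technical. With a single group there was no contrast between conditions. Members were compared with each other, with all protein-coding genes and between the replicates, as descriptions without a test. Reads of the hybrid were aligned to mm10, which is a C57BL/6 genome. Any loss of CAST reads in that step, and its effect on the values given here, was not tested.

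The deposited value of a peak is read here as a signal scaled to library depth, an inference from the values themselves. It moved in equal steps, of 0.00544 in replicate 1 and 0.00587 in replicate 2, and 100% of the values fell within 0.05 of a step of a whole number of them. Read as tags, the median peak stood for 134 tags in replicate 1 and 122 in replicate 2. Intervals given below are exact Poisson 95% intervals on those tags, and cover counting error only, since tags may include PCR copies. A promoter is called open where a peak overlaps the 500 bp on either side of the start of a coding transcript, and its value is that of the highest such peak. The wider of the deposited peak sets was used, with 123255 peaks in replicate 1 and 150088 in replicate 2. Promoter peaks of members were from 106 to 1100 bp wide in replicate 1 and from 160 to 566 bp in replicate 2. Over which stretch of a peak the tags were counted is not stated in the labels or files.

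Marker genes of the labelled tissue were open, as were 66.0% of all protein-coding genes, with a median value of 5.59 over all open promoters. All 8 skeletal muscle markers were open in both replicates, with a median value of 5.17. So were 4 of 4 fibroblast markers with 4.82 and 4 of 4 endothelial markers with 1.04. Of 4 Schwann cell markers 2 were open in both, among them Erbb3 with 1.40 and 1.44, and Sox10 had no promoter peak. No leukocyte marker of 7 and no platelet marker of 4 was open in both replicates. The starts of these markers were poor in CpG, with a median ratio of observed to expected CpG of 0.215 and 0.125. Of all genes with a ratio below 0.35, 13.0% were open. In bulk tissue, fewer cells of a type and less open chromatin per cell cannot be told apart.

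The promoters of 5 genes of the main muscle laminins and their receptor are shown first, since the values below turn on them. Each is the 200 bp around the middle of the stretch that the promoter peaks of both libraries share, in mm10 (GRCm38), written 5′ to 3′ along the strand of the gene. Capitals mark bases inside a deposited footprint of both libraries, a footprint being a short stretch protected from cleavage inside open chromatin.
Lama2 promoter, chr10:27616760-27616959, minus strand: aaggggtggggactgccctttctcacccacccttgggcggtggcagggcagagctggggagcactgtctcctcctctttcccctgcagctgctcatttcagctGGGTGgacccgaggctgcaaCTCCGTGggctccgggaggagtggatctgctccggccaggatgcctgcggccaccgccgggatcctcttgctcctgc
Lamb1 promoter, chr12:31265140-31265339, plus strand: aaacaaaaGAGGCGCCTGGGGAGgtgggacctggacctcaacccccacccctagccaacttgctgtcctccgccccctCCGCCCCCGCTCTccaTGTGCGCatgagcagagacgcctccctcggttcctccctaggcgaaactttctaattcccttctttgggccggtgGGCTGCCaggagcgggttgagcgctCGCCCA
Lamb2 promoter, chr9:108479842-108480041, plus strand: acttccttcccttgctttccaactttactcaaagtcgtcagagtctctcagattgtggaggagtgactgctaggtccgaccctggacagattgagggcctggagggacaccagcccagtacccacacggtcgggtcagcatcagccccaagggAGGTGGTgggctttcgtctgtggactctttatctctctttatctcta
Itga7 promoter, chr10:128933680-128933879, plus strand: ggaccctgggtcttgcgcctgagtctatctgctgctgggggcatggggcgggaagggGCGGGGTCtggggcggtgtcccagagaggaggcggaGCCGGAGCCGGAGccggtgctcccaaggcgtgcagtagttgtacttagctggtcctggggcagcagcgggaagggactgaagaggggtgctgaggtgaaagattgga
Itgb1 promoter, chr8:128685620-128685819, plus strand: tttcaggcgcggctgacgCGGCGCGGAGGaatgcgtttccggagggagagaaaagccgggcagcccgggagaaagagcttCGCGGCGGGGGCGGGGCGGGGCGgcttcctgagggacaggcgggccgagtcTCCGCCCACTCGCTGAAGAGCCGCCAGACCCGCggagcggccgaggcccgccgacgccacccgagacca

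The 5 stretches differ in base composition and in how much of each lay in shared footprints. Itgb1 had a GC content of 74.0%, against 54.0% for Lamb2. Shared footprints covered 67 of the 200 bases in Itgb1 and 48 in Lamb1. They covered 21 in Itga7, 12 in Lama2 and 7 in Lamb2. The GC box GGGCGG, the core motif of SP and KLF factors, was counted on both strands, as was every motif here, with overlapping matches. It occurred 4 times in Itgb1, of which 3 lay wholly in a shared footprint. There were 3 matches in Itga7, 2 in Lamb1, 1 in Lama2 and none in Lamb2. Of 25677 shared peaks near starts, 52.5% held GGGCGG in a window of this length. Lama2 held CAGCTG, an E-box of the type that myogenic factors bind, 2 times, with neither match wholly inside a shared footprint, and 15.4% of those windows hold it. The other motifs searched were the AP-1 motif TGACTCA, the CRE motif TGACGTCA, the ETS motif CCGGAAG, the CCAAT box, the TEAD motif CATTCC and the CTCF core. They gave 1 CCAAT in Itga7 and 1 CATTCC in Itgb1, which 24.1% and 7.62% of the windows hold. A match is a description of letters, not evidence of binding.

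Of the 38 genes, 29 had an open promoter in both replicates, or 76.3%, where 66.0% of all protein-coding genes did. The same 29 were open in each library taken alone, in which 67.8% of all genes were open in replicate 1 and 68.0% in replicate 2. Laminins were open in 10 of 11 genes and integrins in 19 of 27. The genes without a peak at any coding start in either library were Lamb3, Itga2b and 7 of the 8 integrins that are typical of leukocytes. Outside the leukocyte integrins 28 of 30 members were open. The median of the mean promoter value was 2.26 over the 29 open members, ranging from 0.689 for Itgb4 to 13.0 for Itgb1, while it was 5.59 over all 14419 promoters open in both. The median was 1.99 for the 10 open laminins and 2.36 for the 19 open integrins.

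**Figure D1:**
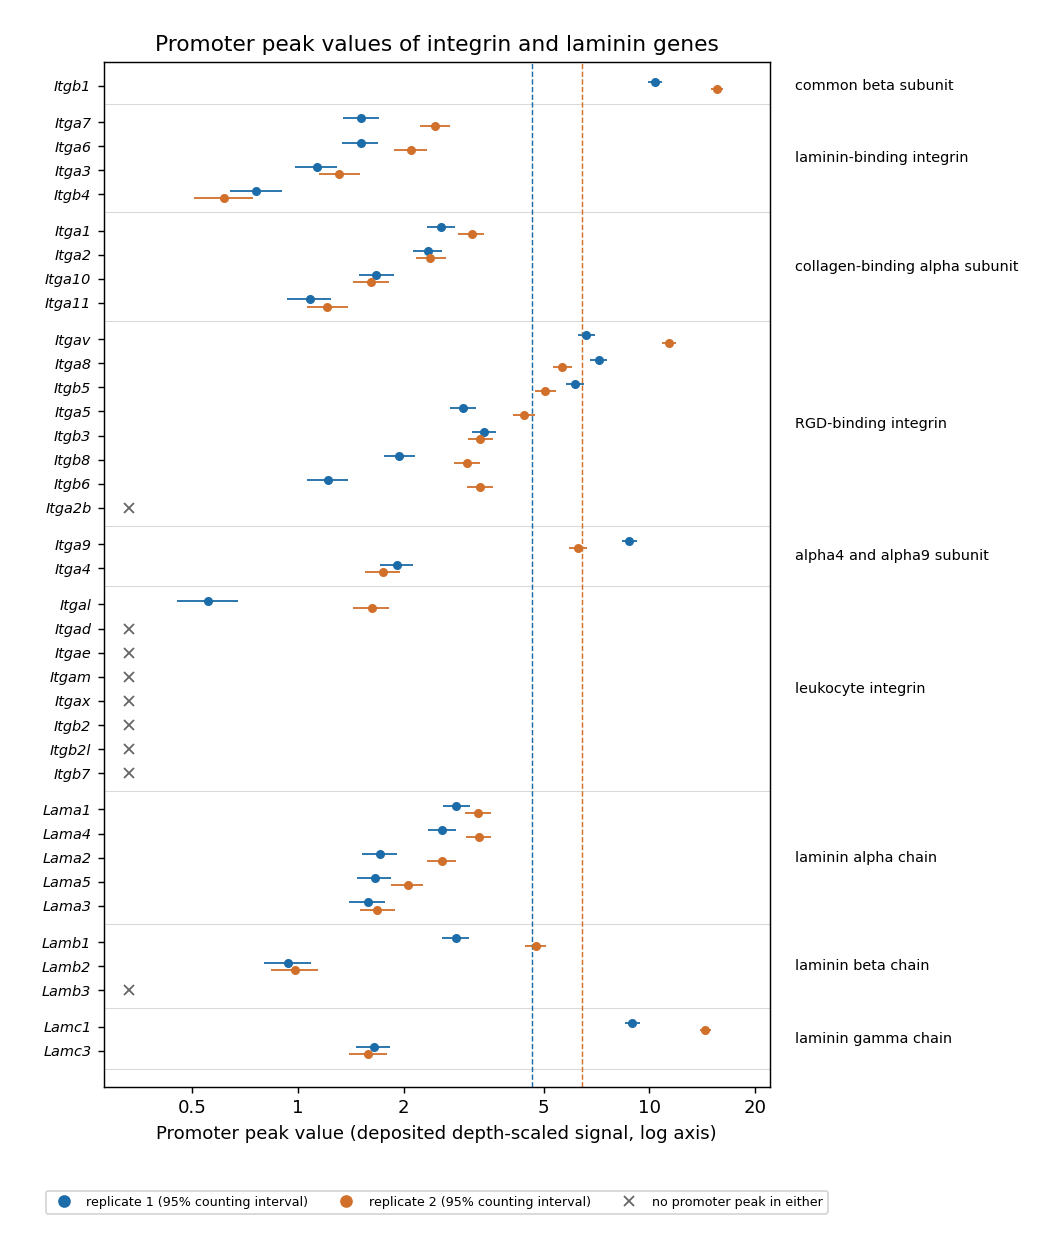
Promoter peak value (depth-scaled signal, log axis) by role of the 38 genes, of which 1 is not drawn, as points for replicates 1 and 2 with 95% counting intervals; crosses at the left edge stand for genes with no promoter peak, and dashed lines for the median of all open promoters in each replicate, 4.64 and 6.44. Itgb1, Lamc1 and Itgav lie right of the line of their replicate in both libraries, while all laminin alpha chains and all laminin-binding integrins of the list lie left of it.

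The laminin alpha chains, which carry the integrin- and dystroglycan-binding end of the trimer, were open in 5 of 5 genes at similar, low values. Lama1, the alpha chain of early embryonic basement membranes, had 2.82 in replicate 1 and 3.26 in replicate 2. Lama4, the chain of blood vessel walls, had 2.57 and 3.27. Lama2, the chain of the muscle fibre surface, had 1.71 and 2.56, with intervals from 1.52 to 1.91 and from 2.32 to 2.81. These values put Lama2 at the 23.9th percentile of all open promoters, below Lama1 and Lama4 in both libraries. Lama5 had 1.65 and 2.05, and Lama3, the chain of epithelial anchoring laminins, had 1.58 and 1.68. The intervals of Lama2, Lama3 and Lama5 overlapped in replicate 1, as did those of Lama1 and Lama4, so neither group was ordered beyond counting error there. In replicate 2 the interval of Lama2 lay above those of Lama5 and Lama3, which overlapped.

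Among the beta chains, Lamb1 stood above Lamb2 with the window of 500 bp used here. Lamb1, the common beta chain, had 2.81 and 4.75. Lamb2, the chain found at neuromuscular junctions and in mature vessel and kidney basement membranes, had 0.935 and 0.980, with intervals from 0.801 to 1.09 and from 0.837 to 1.14. Lamb2 was therefore at the 11.0th percentile of open promoters and Lamb1 at the 37.3rd, and their intervals were apart in both libraries. The order depends on the window: with 1000 bp on either side of a start, Lamb2 had 4.64 and 6.50, above these values of Lamb1. Lamb3, the beta chain of epithelial anchoring laminins, had no peak at either of its groups of coding starts.

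Lamc1, the gamma chain of most laminins, had the second-highest promoter of all members, with 8.94 in replicate 1 and 14.4 in replicate 2. Its mean of 11.7 lay at the 83.1st percentile of open promoters. Lamc3, another gamma chain, was far lower, with 1.64 and 1.58.

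Of the epithelial chains, Lama3 thus had a low promoter peak and Lamb3 none. Beside them, the stratified epithelium markers Krt5 and Krt14 had no promoter peak in either replicate, Trp63 had 0.408 and 0.522, and Dsp, which heart and some other tissues also express, had 1.28 and 1.16. The part of epithelial cells in the peak of Lama3 was not tested.

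Itgb1, the beta subunit that pairs with the largest number of alpha subunits, had the highest promoter of the 38. It reached 10.4 in replicate 1 and 15.6 in replicate 2, with intervals from 9.94 to 10.9 and from 15.0 to 16.2. The peak stood for 1912 tags in replicate 1 and 2652 in replicate 2, and its mean lay at the 87.8th percentile of open promoters. The promoters of the subunits that make it a laminin receptor were much lower. Itga7, the alpha subunit of mature muscle fibres, had 1.51 and 2.46, with intervals from 1.34 to 1.70 and from 2.23 to 2.71. Itga6 had 1.51 and 2.10, and Itga3 had 1.13 and 1.31. Itga7 lay above Itga3 in both libraries with intervals apart, while the intervals of Itga7 and Itga6 overlapped in both. Itgb4, which joins the Itga6 product in the hemidesmosomes of epithelia, had 0.761 and 0.616, the lowest mean of the open members and a 6.69th percentile. It was also the only open member without a shared footprint, although its peaks in the libraries overlap.

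The collagen-binding alpha subunits, which all pair with the Itgb1 product, were open in 4 of 4 genes. Itga1 had 2.55 and 3.12, Itga2 had 2.34 and 2.38, Itga10 had 1.67 and 1.61, and Itga11 had 1.08 and 1.21. The order was the same in both libraries. Intervals of Itga1 and Itga2 overlapped in replicate 1 and were apart in replicate 2, and Itga11 was below each of the other collagen-binding subunits beyond counting error in both. The peak of Itga1 also covers a start of the overlapping gene model Gm49395. It was the only member peak to reach the start of another gene, so its value cannot be given to Itga1 alone.

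The integrins that bind ligands with an RGD motif, such as fibronectin and vitronectin, spanned a wide range. Itgav, the alpha subunit shared by most of their beta partners, had 6.61 and 11.4. Itga8, a receptor for nephronectin, had 7.17 and 5.65, and Itgb5, a partner of Itgav, had 6.16 and 5.06. Itga5, the alpha subunit of the main fibronectin receptor, had 2.94 and 4.40. Of the other beta partners of Itgav, Itgb3 had 3.38 and 3.30, Itgb8 had 1.94 and 3.03, and Itgb6 had 1.22 and 3.30. Itgav was highest in replicate 2 with an interval apart from all others of the group, but in replicate 1 its interval from 6.25 to 7.0 overlapped those of Itga8 and Itgb5. Itga2b, the platelet fibrinogen receptor subunit, had no promoter peak. Beside it, of the platelet markers Pf4 had 0.957 in replicate 2 and none in replicate 1, and Ppbp, Gp1ba and Gp9 had no promoter peak in either.

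Itga9, a subunit for tenascin and other ligands, had 8.76 and 6.27, and Itga4, its nearest relative, had 1.91 and 1.74. Itga9 was the highest member after Itgb1 and Lamc1 in replicate 1, and in replicate 2 it was also below Itgav. The gap between Itga9 and Itga4 exceeded the counting intervals in both libraries.

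The leukocyte integrins Itgad, Itgae, Itgam, Itgax, Itgb2, Itgb2l and Itgb7 had no promoter peak in either replicate. They include Itgb2, the beta subunit common to the Itgal, Itgam, Itgax and Itgad receptors, and Itgb7, the partner of Itgae and Itga4. Itgal was called open with 0.555 and 1.62, but the peak lies 472 bp from the start of a transcript that begins 13258 bp inside the gene. The 4 starts at the 5′ end of Itgal had no peak, and with those starts alone none of the 8 leukocyte integrins was open. In the stricter peak set the Itgal peak was absent from replicate 1. Beside these genes, the leukocyte markers Ptprc, Adgre1 and Cd3e had no promoter peak, while Csf1r had 0.616, Cd68 had 0.833 and Spi1 had 0.951 in replicate 2 and none in replicate 1. The part of leukocyte number in these values was not tested.

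Where a gene had coding starts far apart, usually a single group of starts was open. Itgb5 was open at both: the 5′ starts had 3.25 and 4.01, and a start 62276 bp into the gene had 6.16 and 5.06. The higher value given above for Itgb5 is that of the internal start. An internal start of Itga2 had no peak in replicate 1 and 0.270 in replicate 2. Internal starts of Itga3, Itga6, Itga7, Itga8, Itga9, Itgav, Itgb1, Itgb4, Itgb6, Lama2, Lama3 and Lamc1 had no peak. In Lama2, at chr10:26980036-27619758 on the minus strand, the open starts lie 2915 bp from the 5′ end of the gene and the closed one 563113 bp from it. In Itga6 the open starts lie 41324 bp from the 5′ end.

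Open promoters followed CpG content among members as among all genes. The ratio of observed to expected CpG, taken in 500 bp on either side of a start, had a median of 0.548 over members and 0.614 over all genes. Above a ratio of 0.65, 12 of 12 members were open, beside 97.7% of all genes, and the median value was 4.69 against 7.41. Between 0.35 and 0.65, 13 of 14 members and 76.4% of all genes were open, with medians of 2.13 and 2.89. Below 0.35, 4 of 12 members were open, beside 13.0% of 6997 genes, with medians of 1.37 and 1.15. Of the 8 leukocyte integrins 7 fell in that lowest class, with 1 open, so 14.3% were open in a class where 13.0% of genes are. Itga10, Lama4 and Lamb2 were the open members of the lowest class outside the leukocyte integrins, where 3 of 5 were open. Lamb3 and Itga2b were the closed ones.

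**Figure D2:**
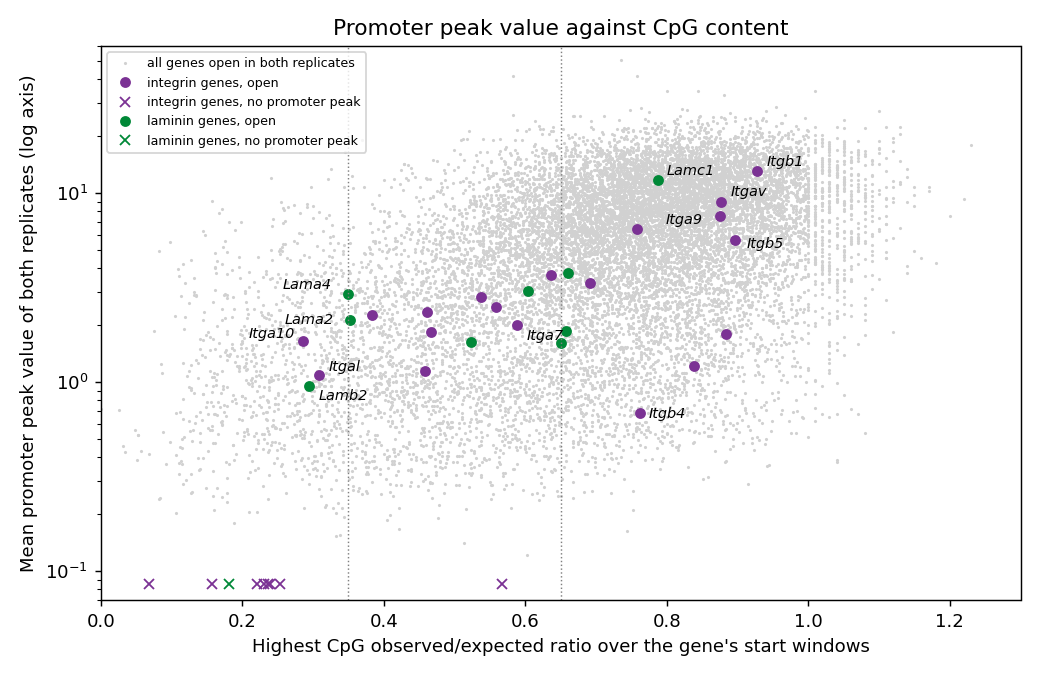
Mean promoter peak value of both replicates (log axis) against the highest observed to expected CpG ratio over the start windows of a gene, with grey dots for all 14419 genes open in both and coloured points for members, of which 1 is not drawn; crosses at the bottom stand for members without a promoter peak, and dotted lines for the class limits 0.35 and 0.65. Itgb1, Lamc1, Itgav and Itga9 lie among the CpG-rich promoters, and 8 of the 9 closed members lie left of 0.35.

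Within each CpG class above 0.35 the members' median value was thus below that of all genes. Itgb4, Itga3 and Itga6 had CpG-rich promoters with ratios of 0.762, 0.838 and 0.884 and values no higher than 2.10 in either library. Lama2, with a ratio of 0.352, and Lama4, with 0.349, lie at the class limit.

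Every open member promoter held footprints in both libraries, as did 97.0% of all open promoters. The median number per promoter peak was 4 in replicate 1 and 5 in replicate 2 for members, and 4 in both for all genes. Itga1, with its wide peak, had the most shared footprints, 7.

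A gene's locus was taken as its body with 10 kb on each side, and a site as a peak found in both libraries with its midpoint more than 500 bp from every annotated start. Sites were counted by the peaks of replicate 1, including peaks that lie within each other, as in Itga11. Member loci held 226 such sites in 36 of the 38 genes, of which 174 lay in introns, 11 in coding exons, 17 upstream and 17 downstream. Their median value, as the geometric mean of both libraries, was 1.02, and 0.867 over all 70757 shared sites of the genome. The sequences below are the 3 highest sites of all member loci, in Itga7, Itgb5 and downstream of Itgb2, and the site next to the Lamb2 promoter, which was added after its value was seen. Each covers 200 bp in mm10 and is written as above.
Itga7 intron, chr10:128938570-128938769, plus strand: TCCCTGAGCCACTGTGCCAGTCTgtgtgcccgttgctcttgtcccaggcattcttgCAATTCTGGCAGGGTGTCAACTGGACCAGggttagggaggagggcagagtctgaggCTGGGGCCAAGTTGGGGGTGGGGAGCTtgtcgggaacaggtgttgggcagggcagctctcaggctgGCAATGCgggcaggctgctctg
Lamb2 upstream, chr9:108478900-108479099, plus strand: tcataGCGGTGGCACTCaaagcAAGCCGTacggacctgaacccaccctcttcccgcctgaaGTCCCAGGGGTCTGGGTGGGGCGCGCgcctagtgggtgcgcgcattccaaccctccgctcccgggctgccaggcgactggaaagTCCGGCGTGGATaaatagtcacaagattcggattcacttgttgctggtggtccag
Itgb5 intron, chr16:33860100-33860299, plus strand: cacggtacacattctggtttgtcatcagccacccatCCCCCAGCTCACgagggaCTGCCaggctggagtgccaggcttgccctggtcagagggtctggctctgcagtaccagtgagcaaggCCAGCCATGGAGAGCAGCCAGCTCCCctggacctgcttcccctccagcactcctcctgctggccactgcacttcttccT
Itgb2 downstream, chr10:77566770-77566969, plus strand: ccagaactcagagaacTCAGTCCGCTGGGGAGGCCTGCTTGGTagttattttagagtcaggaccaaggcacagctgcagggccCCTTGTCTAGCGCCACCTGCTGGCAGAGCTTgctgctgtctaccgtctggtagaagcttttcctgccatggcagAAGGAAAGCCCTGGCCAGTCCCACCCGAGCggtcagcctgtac

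The Itga7 site lies in an intron, with its midpoint 4852 bp from the 5′ end of the gene. Its peak, chr10:128938601-128938740, had 5.91 in replicate 1 and 10.3 in replicate 2, at the 99.1st percentile of all shared sites. In both libraries it was higher than the Itga7 promoter, 4.04 times as a geometric mean. A further intron site at 4152 bp had 2.81 and 4.37, so both stood above the promoter peak. Shared footprints covered 86 of the 200 bases printed. None of the 8 motifs searched occurred there, but CAGCTG was the only E-box among them, and other E-boxes were not counted.

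The Lamb2 site lies 736 bp upstream of the first start, chr9:108478921-108479080, and had 4.64 and 6.50, against 0.935 and 0.980 at the promoter. That is 5.74 times the promoter as a geometric mean, at the 97.7th percentile of shared sites. Its class depends on the window: with 1000 bp on either side of a start, it would be the Lamb2 promoter peak. Shared footprints covered 57 of the 200 bases, and 1 CATTCC, the core of TEAD motifs, lay outside them, a match that 12.7% of shared sites have. The nearest start of another coding gene, Usp19, is 11602 bp away.

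The highest site in the Itgb5 locus, in an intron 30535 bp from the 5′ end, had 4.93 and 9.17, and held none of the motifs searched. The locus had 17 shared sites, with another of 5.82 and 4.60 lying 8705 bp upstream. The highest site of all, with 11.3 and 6.88, lies downstream of Itgb2, whose promoter had no peak, and 14850 bp from the start of Pttg1ip. It held 1 match to the CTCF core inside a footprint of both libraries, as well as 1 CAGCTG outside. The CTCF core occurs in 7.30% of shared sites and CAGCTG in 26.9%. The CTCF core was added to the motifs after this sequence was seen.

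**Figure D3:**
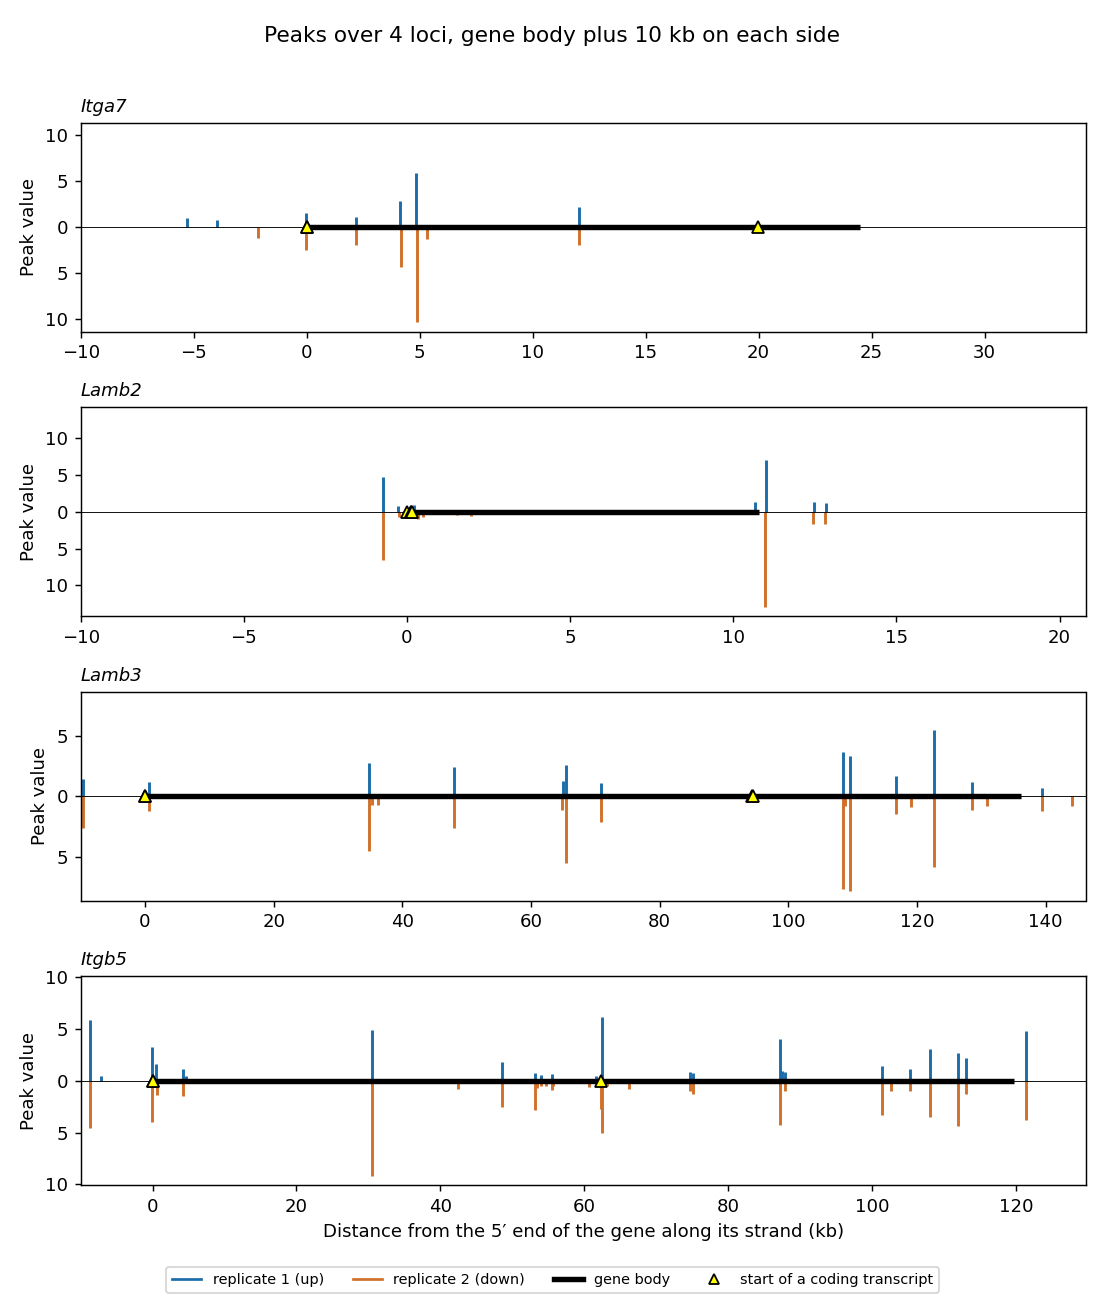
Peaks in the loci of Itga7, Lamb2, Lamb3 and Itgb5 by distance from the 5′ end of the gene (kb, along its strand), with peak value up for replicate 1 and down for replicate 2, the gene body as a thick line and coding starts as triangles. The Itga7 intron site of 5.91 and 10.3 and the Lamb2 upstream site of 4.64 and 6.50 stand above the peaks at the triangles; the tall Lamb2 peaks past the 3′ end lie at the start of Usp19, and starts of other genes are not marked.

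Lamb3 had no open promoter but several high sites. Of its 10 shared sites, those in introns at 122681, 108491 and 109521 bp from the 5′ end had 5.49 and 5.85, 3.62 and 7.67, and 3.35 and 7.86. G0s2, Hsd11b1 and Traf3ip3 also start in the locus, and 10 of the 32 peaks summed over both libraries lay at their starts. A site 691 bp from the 5′ end, with 1.16 and 1.20, opens Lamb3 when the window is 1000 bp. Which gene these sites serve was not tested. Lama5 had an intron site of 4.62 and 7.17, 8029 bp from its start, and the highest site of the Itgb7 locus, with 5.80 and 3.83, lies 4189 bp from the start of Rarg.

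For the other genes of the main muscle set, the highest sites were lower as geometric means of both libraries. In replicate 1 alone, the Itgb1 site was above the Lamb2 site of 4.64. The Itgb1 intron site had 5.13 and 2.83, that of Lama2 had 2.36 and 2.88, that of Lamc1 had 1.38 and 2.55, and that of Lamb1 had 1.28 and 0.921. Repeats, as masked in the genome, made up 57.5% of the Itgb1 site and 87.5% of the Lama2 site. With 1000 bp on either side of a start the Lama2 site would be the promoter peak of that gene, in place of 1.71 and 2.56. Lama2 and Itga7 thus had a site above the promoter as defined here, while Itgb1, Lamc1 and Lamb1 had the highest site at 0.300, 0.165 and 0.298 times the promoter.

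Over all members open in both replicates, the highest site in the locus was above the promoter in 16 of 29 genes, or 55.2%, beside 21.5% of all genes open in both. Member loci are long, with a median of 100781 bp for open members and 45255 bp for all open genes. Among genes with a locus between the quartiles of the members' lengths, 67547 and 144352 bp, the count was 8 of 15 members, beside 22.4% of 2844 genes. Members also had lower promoter values than all open genes, which enters the same ratio, and its part in the count was not tested. The count also depends on the window: with 1000 bp on either side of a start, the Lama2 and Lamb2 sites would be promoter peaks. The ratio of site to promoter was highest for Itgb4 with 5.97, Lamb2 with 5.74, Itgal with 4.08, Itga7 with 4.04, Itga3 with 3.31 and Lama5 with 3.13. The Itga3 site lies downstream of the gene, 986 bp from the start of Pdk2. The ratio was lowest for Itga8, with 0.0947. The promoter of Itga8 was among the highest of the members, and the highest of its 4 intron sites had 0.484 and 0.751.

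**Figure D4:**
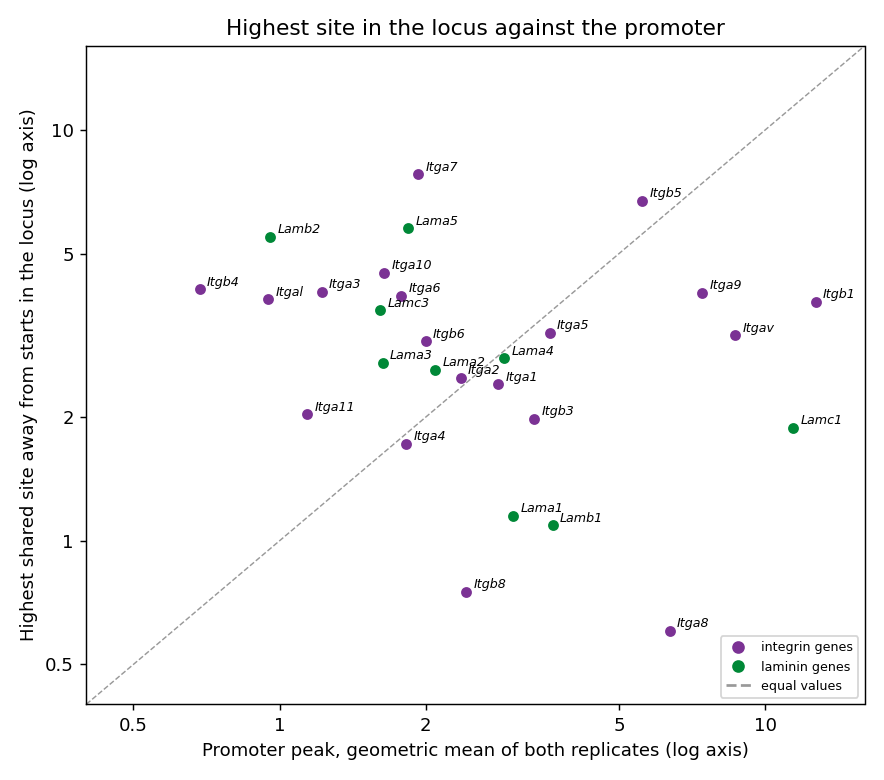
Highest shared site away from starts in the locus against the promoter peak for the 29 members open in both replicates, of which 1 is not drawn, each as the geometric mean of both replicates (log axes), with integrins in purple and laminins in green. Itga7, Lamb2 and Itgb4 lie far above the dashed line of equal values, while Lamc1, Itgb1 and Itga8 lie far below.

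Loci of members held a median of 7.5 peaks in replicate 1 and 11 in replicate 2, where all genes had 4 and 5. Per 10 kb the medians were 0.825 and 1.09 for members and 0.777 and 0.896 for all genes. Bases listed in the deposited file of false discovery rates made up a median of 2.19% and 3.26% of a member locus, and 2.67% and 3.06% of the locus of all genes. The higher number of peaks thus went with longer loci, with medians of 84052 and 37380 bp. Itga9 had the most peaks, 28 and 47, followed by Itgb5 with 24 and 29. Lama2, the longest locus with 659723 bp, had 18 and 28 peaks and only 0.634% and 1.15% of its bases listed. Lama5 had 18 and 25 peaks in 69487 bp, with 7.16% and 11.7% of bases listed. Itga2b, with a closed promoter, had the densest locus, with 13.5% and 12.8% of bases listed, and its highest shared site had 1.03 and 1.49. Fam171a2 also starts in this locus, and 5 of the 7 shared sites lay downstream of Itga2b, nearest to the Fam171a2 start. Itgax and Itgb2l had no peak in the locus in either library, 2 of 38 genes, beside 13.0% of all genes.

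Of 13 basement membrane and fibre-matrix partners, 13 were open in both replicates, beside 66.0% of all protein-coding genes. Their median CpG ratio was 0.662, and 97.7% of all genes with a ratio above 0.65 were open. The median promoter value of the partners was 5.02, between the 2.26 of the open members and the 5.59 of all open promoters. Dag1, the laminin receptor dystroglycan, had 15.8 and 27.9, above every member in both libraries, and Hspg2, perlecan, had 12.0 and 17.4. Fn1, fibronectin, had 7.43 and 12.5. The nidogens, which bind the Lamc1 chain, differed from each other: Nid2 had 6.42 and 10.5, and Nid1 had 0.402 and 1.43. Col4a1 and Col4a2, which start next to each other, share a peak of 2.98 and 4.55. Among the lower partners were Tnc, tenascin C, with 1.66 and 2.83, and Vtn, vitronectin, with 0.946 and 2.35.

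Of 17 genes of the adhesion plaque, which links integrins to actin, 15 were open in both replicates, beside 66.0% of all genes. Their median value was 7.46, above the 5.59 of all open promoters. Their median CpG ratio was 0.768, within the class above 0.65, where 97.7% of all genes were open. Vcl, vinculin, had 14.0 and 25.7, and Lims1, a partner of integrin-linked kinase, had 12.3 and 19.2. Ilk itself had 6.46 and 9.62. Tln2, a talin, had no peak in replicate 1 and 0.563 in replicate 2, while Tln1 had 5.82 and 9.10. Fermt3, the kindlin of blood cells, likewise had a peak in replicate 2 only, of 0.581. Fermt2, the kindlin of most other tissues, had 6.15 and 10.1. Lims2 had 1.51 and 1.57, Parvb, a parvin, had 1.40 and 1.33, and Fermt1, the kindlin of epithelia, had 0.419 and 0.364. Itgb1bp2, a muscle protein that binds the Itgb1 tail, had 0.343 and 1.21.

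Promoter values were higher in replicate 2 for 21 of the 29 open members. The median ratio of replicate 2 to replicate 1 was 1.22 over members, ranging from 0.716 for Itga9 to 2.92 for Itgal. Over all open promoters it was 1.36, with a 10th percentile of 0.868, so most of those were also higher in replicate 2. Their exact share was not counted. Spearman's rho between the replicates was 0.875 across the 29 members and 0.955 across all 14419 promoters, which are genes of the same libraries and not independent replicates. After division by 1.36, the intervals of the libraries were apart for 17 of 29 members, beside 63.0% of all open promoters. Relative to that median, Itgal and Itgb6 were higher in replicate 2 by 2.15 and 2.00 times. Itga9, Itga8, Itgb4 and Itgb5 had 0.528, 0.582, 0.597 and 0.606 of it.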

How the data were processed

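DNase-seq of 2 libraries of 1 group was analysed from the peaks, footprints and per-base false discovery rates deposited for each. The deposited sample notes say that these were made for each library from its alignments to mm10, and name no pooling. For the aligner, the peak caller and versions, nothing is given in the sources used. The peak value is a signal that the authors scaled to library depth, per the values themselves. The p-value type of number in the per-base files, an FDR, was deposited by the authors for bases under 0.05. All footprint lines carry the value 0.01, and positions alone were analysed.

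Members and gene lists were chosen with earlier results of these data known. All members enter the counts and medians, and some values and names of single genes are not reported here. Named sites are the 10 highest over member loci and the highest of each of Lama2, Lamb1, Lamb2, Lamc1, Itga7 and Itgb1. Other genes and sites were named after their values were seen. Starts came from GENCODE M21 and sequence from GRCm38, on chromosomes 1 to 19, X and Y. An overlap of 1 bp counted, and footprints were shared at 50% of the shorter. Libraries held 310961 and 373154 footprints and 35695993 and 43782204 listed bases. Python 3.11.15, numpy 2.4.6, scipy 1.17.1 and pysam 0.24.0 were used, and the counting of overlaps was tested on simulated data. The closing section gives the alternatives.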

Additional observations from a re-analysis of the deposited data

How the results depend on the processing

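The number of open members was 29 without either replicate, with 19 integrins, 10 laminins and 1 leukocyte integrin. It ranged from 27 to 30 over the settings tried, and the open share of all genes from 59.9% to 68.0%. That share was 59.9% with a minimum at the median peak value, 61.8% with the stricter set and 67.5% with a window of 1000 bp. The stricter peak set and a minimum at the median peak value both lost Itgal and Itgb4, a window of 250 bp and the first coding start alone lost Itgal, and a window of 1000 bp gained Lamb3. The leukocyte integrin count was 0 in place of 1 under the stricter set, the 250 bp window, the minimum at the median value and the first start alone. The median promoter value was 1.91 without replicate 2 and 2.56 without replicate 1, where all open promoters had 4.49 and 6.16.

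The median number of peaks per member locus, averaged over the replicates, was 9.5. It became 6.25 with the stricter set and 18 with a flank of 50 kb, where all genes had 4.50, 3.00 and 11.5. It was 7.50 without replicate 2 and 11.0 without replicate 1. The median share of listed bases was 2.77%, and 1.68% under an FDR of 0.001, where all genes had 2.89% and 1.95%. Members lay above all genes when the flank was changed, with 2.72% against 2.39% without a flank and 3.11% against 2.63% with 50 kb. It was 2.19% without replicate 2 and 3.26% without replicate 1, where all genes had 2.67% and 3.06%. The first start alone, basic transcripts and an equal number of peaks were chosen after seeing the data. Depth limits the lowest peaks, which stood for 8 tags in replicate 1 and 6 in replicate 2.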
